A study of Rattus norvegicus with 48 samples.

Results

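Mature miRNAs known from the pancreas were followed across the serum and ulna bone of ZDF and WT rats: rno-miR-375-3p, rno-miR-7a-5p, rno-miR-217-5p and both arms of rno-miR-216a and rno-miR-216b, written here without the rat prefix. They were chosen by name, as the rows of the count files that hold miR-375-3p, miR-7a-5p or miR-217-5p or start with miR-216, which gave 7 of the 763 mature rat miRNAs listed. Of these 7, 6 had at least 1 read in at least 1 library, and miR-216b-3p had none. Over all libraries, 629 of the 763 miRNAs had a read.

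The study sequenced small RNAs from 32 serum and 16 ulna libraries to ask how type 2 diabetes and bone treatments shift miRNA levels. Male ZDF rats (ZDF fa/fa) carry a leptin receptor mutation and become diabetic, and lean rats (ZDF +/+), called WT, served as controls. Every rat, controls included, had a defect made in the femur at 11 weeks of age and was then treated for 12 weeks. The treatments were placebo, PTH (parathyroid hormone, 75 µg/kg, 5 injections a week), anti-sclerostin (an antibody that blocks the bone formation inhibitor sclerostin, 25 mg/kg) and insulin. The sera comprised 5 placebo, 5 PTH and 4 anti-sclerostin libraries in each genotype, to which ZDF added 4 insulin libraries. The bones comprised 4 libraries for each pairing of genotype with placebo or PTH. The rats were taken from earlier experiments, and the anti-sclerostin rats came from another experiment than the placebo rats, so treatment and experiment cannot be told apart in that comparison. There was no group of WT rats given insulin.

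miR-375 is among the most abundant miRNAs of pancreatic islets, where it restrains insulin secretion and is needed for a normal beta cell mass, and it is also made in the pituitary and in other secretory epithelia. miR-7a is another islet and neuroendocrine miRNA that dampens insulin release. miR-216a, miR-216b and miR-217 are transcribed together from a single cluster and are typical of the enzyme-secreting acinar cells of the exocrine pancreas, so their presence in blood is known as a sign of acinar cell damage.

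The mature sequences show how alike these miRNAs and some of their relatives are. They are taken from RefSeq (GRCr8), which held all 7, and are written 5′ to 3′ with the seed, bases 2 to 8, in capitals:
miR-375-3p: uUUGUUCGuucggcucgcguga
miR-7a-5p: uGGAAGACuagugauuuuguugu
miR-7b: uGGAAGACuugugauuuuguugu
miR-7a-1-3p: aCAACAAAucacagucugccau
miR-217-5p: uACUGCAUcaggaacugacugg
miR-216a-5p: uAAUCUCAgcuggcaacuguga
miR-216b-5p: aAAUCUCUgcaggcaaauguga
The 7 chosen miRNAs have 7 different seeds, and among the listed miRNAs with a RefSeq sequence only miR-7b shares a seed with any of them. miR-7a-5p and miR-7b differ at 1 of 23 positions, and the mapping allowed 1 mismatch, so their reads could be exchanged; miR-7b was listed at 0 reads in all 48 libraries. miR-216a-5p and miR-216b-5p differ at 4 of 22 positions. The other listed miRNAs were compared by seed alone, which does not settle whether their reads could be exchanged with these.

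In GRCr8 the Mir375 hairpin lies on the minus strand at chr9:83906582-83906656. The Mir216b, Mir216a and Mir217 hairpins lie in that order on the plus strand of chr14, at chr14:106714026-106714127, chr14:106725077-106725182 and chr14:106732485-106732589, a stretch of 18564 bases. miR-7a-5p is cut from 2 hairpins, Mir7-1 on chromosome 17 and Mir8 on chromosome 1, and its reads do not show which of them made it, whereas miR-7a-1-3p comes from Mir7-1 alone.

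Depth set what could be measured. The sera held 28015 to 205664 reads on miRNAs (median 86230) and the bones 41627 to 1398702 (median 237032). A count of 0 therefore allows up to 14.6 to 107 CPM (counts per 1000000 miRNA reads) in a single serum and up to 2.14 to 72.1 in a single bone, taking 3 reads as the limit, which like the intervals given here covers counting error only. The insulin sera stood apart from the placebo-treated ZDF sera in a measure of hemolysis, the log2 ratio of the red cell miRNA miR-451-5p to miR-23a-3p, which was 3.18 to 3.79 in them and −0.49 to 1.41 in the latter; single WT placebo and ZDF PTH sera reached 3.30 and 4.29. The labels do not say more of the replicates than their group and do not tie a bone to a serum, so p-values measure the spread between these samples.

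miR-375-3p was the only one of the 7 with reads in all 48 libraries. It took 5069 of 2942603 serum miRNA reads, or 0.172%, against 337 of 6401893 bone miRNA reads, or 0.00526%. Scaled only to the miRNA reads of its library, its mean level was 3446 ± 1754 CPM (SD, n = 5) in placebo-treated ZDF serum, 3126 ± 1043 (n = 4) under anti-sclerostin, 2831 ± 1957 (n = 5) under PTH and 1239 ± 452 (n = 4) under insulin. In WT serum it was 1119 ± 502 (n = 5) under PTH, 965 ± 485 (n = 4) under anti-sclerostin and 662 ± 627 (n = 5) under placebo. In bone it was 64.0 ± 56.4 in WT placebo, 61.3 ± 32.9 in ZDF placebo, 35.1 ± 17.9 in ZDF PTH and 32.9 ± 20.6 in WT PTH (n = 4 each). The 11 groups thus ran from the treated and untreated ZDF sera down through the WT sera to the bones. In this order the libraries of every neighbouring pair of groups overlapped except the lowest serum group and the highest bone group. By mean level miR-375-3p ranked 44 of 763 in placebo-treated ZDF serum, 82 in WT placebo serum and 197 in WT placebo bone.

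**Figure D1:**
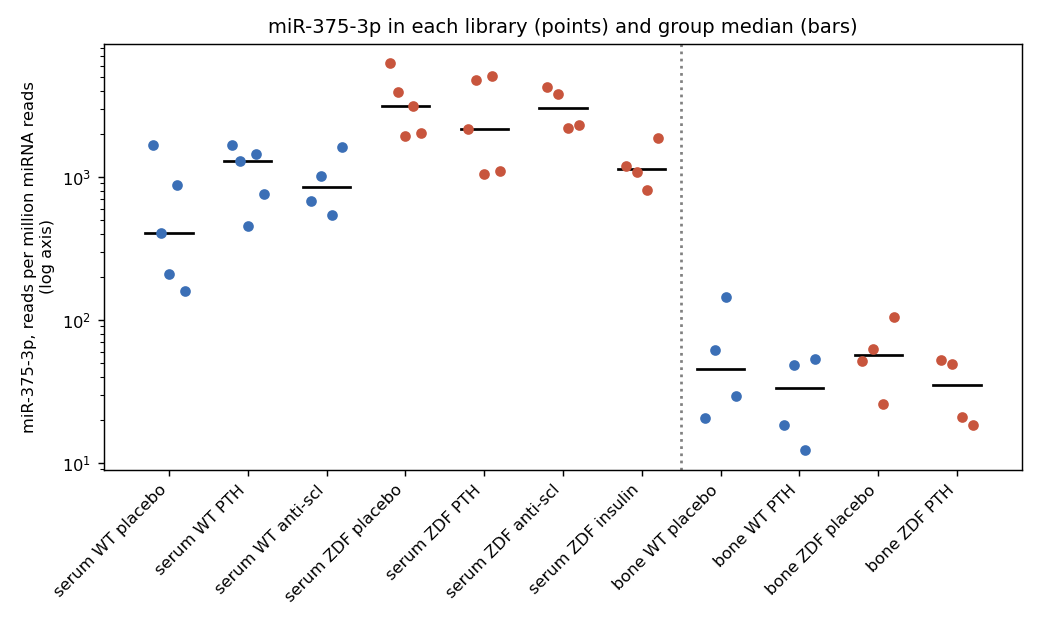
miR-375-3p in CPM, scaled to miRNA reads (log axis) in each library, by group; blue points are WT and red points ZDF rats, black bars are group medians, and the dotted line separates serum from bone. The ZDF placebo sera sit between 1945 and 6219, all above the WT placebo sera, and the highest bone reaches 144.

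The first comparison asked which circulating miRNAs differ in diabetic rats. miR-375-3p was higher in ZDF than in WT serum under placebo. After TMM scaling over all sera, which adjusts for the overall composition of a library and is used for the levels that follow, the 5 WT placebo sera held 1687, 398, 174, 823 and 152 CPM from 342, 35, 25, 57 and 23 reads. The 5 ZDF placebo sera held 5596, 4195, 1914, 3272 and 1752 CPM from 303, 364, 242, 241 and 98 reads. The groups did not overlap, although the lowest ZDF serum lay just above the highest WT serum; among miRNAs with a read, 1.91% did not overlap in this comparison. In edgeR's quasi-likelihood test the log2 fold change (log2FC) was 2.30 (SE 0.58, FDR = 0.0262), a 4.92-fold difference. The FDR is adjusted over all miRNAs tested, and values under 0.2, the threshold of the study, are called here. Of the 164 miRNAs tested, 6.1% passed. miR-375-3p was the only one of the 7 abundant enough to be tested in serum. An exact permutation test of the log2 levels gave p = 0.00794, two-sided, the smallest that 5 against 5 sera allow, and 0.0714 after adjustment over the 9 serum comparisons.

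The call held in every alternative fit, with a log2FC of 1.79 (FDR = 0.146) when libraries were scaled to the spiked extraction controls, which shifted the median of all miRNAs by −0.93, and of 2.19 (FDR = 0.0239) with the hemolysis measure as a covariate. WT placebo replicate 1, with 1687 CPM, lay closest to the ZDF sera. The liver miRNAs moved the same way: 4 of 5 on a list of liver miRNAs (miR-122-5p, miR-122-3p, miR-802-5p and miR-192-5p) could be tested. All 4 were called higher in ZDF serum, in a comparison in which 6.1% of 164 miRNAs passed. Their median log2FC was 2.01 against −0.09 over all miRNAs tested. The summed level of the list was 7137 to 20754 CPM in ZDF placebo serum and 1225 to 5830 in WT placebo serum. Most of that sum was miR-192-5p, TMM-scaled at 4934 to 19412 CPM in ZDF placebo and 965 to 5431 in WT placebo serum. The study places miR-192-5p in epithelium of the intestine and prostate as well as in hepatocytes. The part of the sources of these miRNAs in the miR-375-3p difference was not tested. In serum, more source cells and more release per cell cannot be told apart.

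The genotype difference was then read in the sera of treated rats. Under anti-sclerostin the 4 WT sera held 919, 932, 547 and 1707 CPM of miR-375-3p and the 4 ZDF sera 4127, 3476, 2167 and 1900.0 CPM. Every ZDF serum was above every WT serum, which was the case for 1.97% of miRNAs with a read in either direction. The log2FC was 1.68 (SE 0.41) with an unadjusted p of 0.00168 and an FDR of 0.270 in edgeR, so it was not called. Of the 161 miRNAs tested, 0% passed in edgeR, 11 had an unadjusted p under 0.05, and DESeq2 called 6. miR-375-3p was among those 6 (log2FC 1.65, FDR = 0.0268).

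Under PTH the 5 WT sera held 1876, 1157, 358, 1078 and 984 CPM and the 5 ZDF sera 1614, 5029, 1296, 4636 and 1108 CPM. Here 2 of 5 ZDF sera were above the highest WT serum and the groups overlapped. The log2FC was 1.35 (SE 0.53, FDR = 0.896). No miRNA passed among 158 tested (0%), 5 had an unadjusted p under 0.05, and DESeq2 called 0.

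Joint fits, added after the group values were known, put these sera together with treatment as a covariate. Over the placebo, PTH and anti-sclerostin sera of both genotypes (14 ZDF, 14 WT) miR-375-3p was higher in ZDF with a log2FC of 1.79 (SE 0.33, FDR = 0.00126), had the smallest p of 198 miRNAs tested, of which 4.55% passed, and was called without any single library. Over the PTH and anti-sclerostin sera alone (9 ZDF, 9 WT), which share no library with the placebo comparison, the log2FC was 1.496 (SE 0.35, FDR = 0.0542). It was the only miRNA called among 182 (0.549%). That call was lost without ZDF anti-sclerostin replicate 1 or 2, ZDF PTH replicate 2 or 4, or WT anti-sclerostin replicate 2, with the FDR reaching 0.312.

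Insulin was the only treatment here aimed at the diabetes itself. The 4 insulin-treated ZDF sera held 1591, 1116, 1117 and 2263 CPM of miR-375-3p from 93, 80, 92 and 113 reads. Of these, 3 of 4 lay below the lowest placebo-treated ZDF serum (1752 CPM), and the other lay above 2 of the 5; of miRNAs with a read, 3.9% did not overlap in this comparison. miR-375-3p was lower in insulin-treated than in placebo-treated ZDF rats by a log2FC of −1.15 (SE 0.37, FDR = 0.0648), a 2.22-fold difference, in a comparison in which 26.5% of 151 miRNAs passed. The exact permutation test gave p = 0.0635 (adjusted 0.179, n = 4 and 5).

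This difference depended on how libraries were scaled. Relative to the extraction controls, which are added in a fixed amount, it was −0.27 (FDR = 0.786), while the median of all tested miRNAs shifted by 0.84 under that scaling. Per 100000 extraction control reads, the insulin sera held 65.9, 64.8, 30.7 and 57.4 reads of miR-375-3p, all within the 20.4 to 97.4 of the placebo-treated ZDF sera. The call was also lost without ZDF placebo replicate 1 (log2FC −0.84, FDR = 0.202) or insulin replicate 3 (−0.97, FDR = 0.265), and with the hemolysis measure, which did not overlap between the groups, as a covariate (−2.91, SE 1.07, FDR = 0.722).

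**Figure D2:**
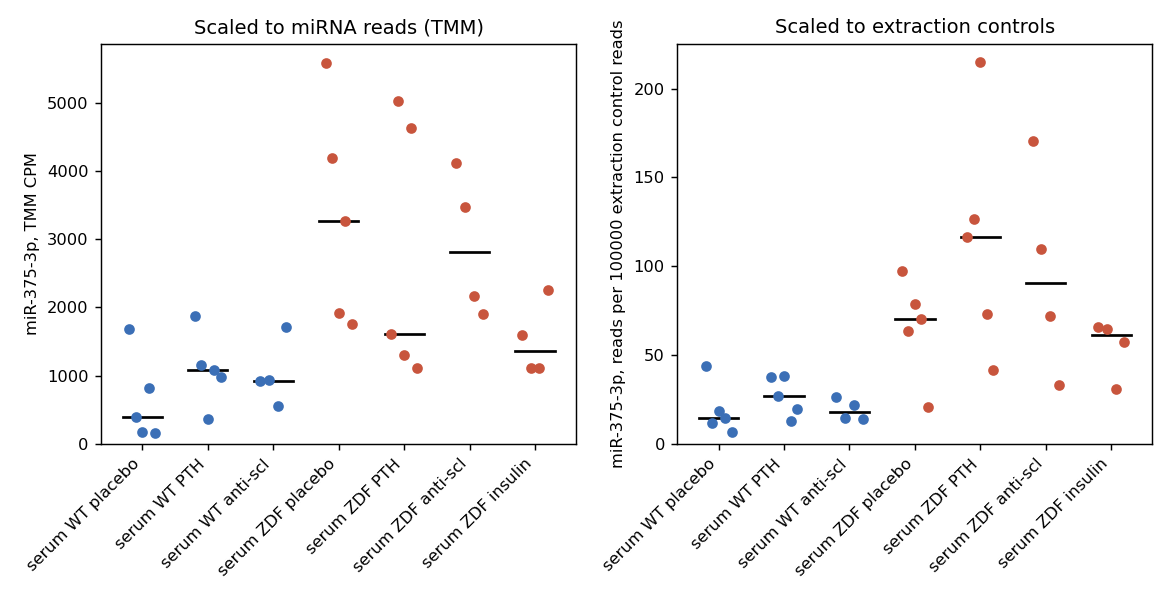
miR-375-3p in each serum library, as TMM CPM on the left and as reads per 100000 extraction control reads on the right; blue points are WT, red points ZDF rats, and black bars group medians. On the right the 4 insulin sera lie at 30.7 to 65.9, inside the range of the ZDF placebo sera, while on the left 3 of 4 lie below it.

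Against WT placebo serum, insulin-treated ZDF serum was still higher in miR-375-3p, with a log2FC of 1.25 (SE 0.54, FDR = 0.169) and 19.5% of 154 miRNAs called. One of the 4 insulin sera exceeded the highest WT placebo serum. This call was lost when all serum groups shared one fit (FDR = 0.215), under library totals (0.89, FDR = 0.320), under the extraction controls (1.51, FDR = 0.552) and without any one of insulin replicates 1, 3 and 4 and WT placebo replicates 2, 4 and 5. The placebo-treated ZDF sera entered one insulin comparison and the WT placebo sera the other, and both insulin comparisons share the 4 insulin sera.

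The liver and red cell lists were read beside the insulin comparison, in which 26.5% of 151 miRNAs passed. All 4 tested liver miRNAs were lower under insulin (median log2FC −1.42 against −0.10 over all miRNAs tested), with a summed level of 1865 to 6646 CPM. Most of that sum was again miR-192-5p (TMM-scaled 1773 to 5497 CPM). All 4 red cell miRNAs (miR-451-5p, miR-144-3p, miR-144-5p and miR-486) were higher, with a median log2FC of 0.95. Among 15 other islet and neuroendocrine miRNAs, 3 could be tested. Of these, miR-141-3p (log2FC −1.10, FDR = 0.172) and miR-200a-3p (−0.77, FDR = 0.188), epithelial members of the miR-200 family, were lower, and miR-429 of the same family did not pass (−0.61, FDR = 0.291). In the ZDF against WT placebo comparison 0 of these 3 passed in edgeR, with log2FC of 0.88, 0.07 and 0.55. Scaled to the extraction controls, the insulin comparison had 22 miRNAs called higher and 0 lower. The lower calls given here, those of the liver miRNAs included, were therefore lost under that scaling.

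PTH and anti-sclerostin act on bone formation, and neither shifted miR-375-3p detectably within a genotype. In ZDF serum the log2FC against placebo was −0.14 (SE 0.42, FDR = 0.895) under anti-sclerostin, where 1.27% of 158 miRNAs passed, and −0.20 (SE 0.48, FDR = 0.993) under PTH, where 0% of 154 passed in edgeR and 0 in DESeq2, with 4 at an unadjusted p under 0.05. In WT serum it was 0.46 (SE 0.59, FDR = 0.788) under anti-sclerostin and 0.79 (SE 0.58, FDR = 0.992) under PTH. No miRNA passed in edgeR in either WT comparison (0% of 171 and 0% of 170); 18 and 2 had an unadjusted p under 0.05, and DESeq2 called 5 and 0. Relative to the extraction controls the sign turned in ZDF serum under anti-sclerostin (0.54) and PTH (0.79) and in WT serum under anti-sclerostin (−0.0020), none of them called. The test of whether a treatment acted differently in the genotypes gave −0.58 (SE 0.78, FDR = 0.876) for anti-sclerostin and −1.002 (SE 0.81, FDR = 0.922) for PTH. In these tests 0% of 189 and 0% of 182 miRNAs passed in edgeR, 4 and 8 had an unadjusted p under 0.05, and DESeq2 called 0 in both.

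**Figure D3:**
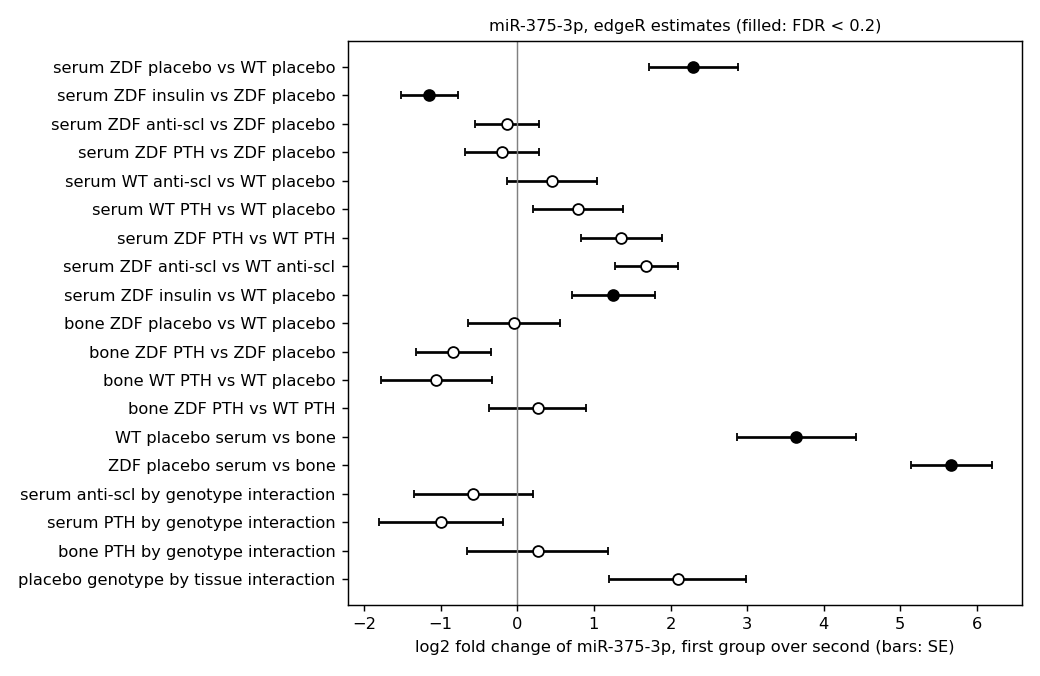
Log2 fold change of miR-375-3p (points) with its standard error (bars) in the 15 comparisons of 2 groups and the 4 interaction terms, first group over second; filled points have FDR < 0.2. Filled points are at 2.30, −1.15 and 1.25 among the serum comparisons and at 3.64 and 5.66 between serum and bone, and no filled point lies among the bone comparisons.

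In ulna, miR-375-3p was scarce and did not follow genotype. The 4 WT placebo bones held 18.0, 57.1, 148 and 36.1 CPM from 4, 24, 83 and 28 reads, and the 4 ZDF placebo bones held 51.0, 78.7, 21.6 and 103 CPM from 10, 87, 3 and 22 reads. The ranges of the groups overlapped throughout, and the log2FC was −0.04 (SE 0.60, FDR = 0.976), with 2.55% of 235 miRNAs called. Under PTH the WT bones held 20.0, 52.4, 10.9 and 42.6 CPM and the ZDF bones 53.5, 54.7, 22.2 and 17.1 CPM. PTH against placebo gave −1.06 (SE 0.72, FDR = 0.484) in WT bone, where 5.41% of 222 miRNAs passed, and −0.83 (SE 0.49, FDR = 0.678) in ZDF bone, where 0% of 215 passed in edgeR, 13 had an unadjusted p under 0.05 and DESeq2 called 1. ZDF against WT under PTH gave 0.26 (SE 0.64, FDR = 0.851; 3.27% of 214 called), and the interaction 0.27 (SE 0.92, FDR = 0.9501; 0% of 243 in edgeR, 13 at an unadjusted p under 0.05, 1 called by DESeq2).

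Serum and bone were compared within the placebo groups. By the methods these bones and sera came from the same rats, but the labels do not say which belong together, so the libraries were tested as independent samples. miR-375-3p was higher in serum in both genotypes, by a log2FC of 3.64 (SE 0.77, FDR = 0.000611) in WT and 5.66 (SE 0.53, FDR = 1.89e-07) in ZDF, and in both every serum was above every bone. Most miRNAs differ between these tissues, 80.6% of 222 in WT and 86.1% of 202 in ZDF. The genotype difference was 2.10 larger on the log2 scale in serum than in bone (SE 0.89, unadjusted p = 0.0274, FDR = 0.394 in edgeR), which did not pass. No miRNA passed that test in edgeR (0% of 229; 22 at an unadjusted p under 0.05, 6 called by DESeq2). 

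miR-7a-5p was close to the limit of detection in serum. It had 45 reads over the 32 sera, none in 8 of them and at most 6 in 1, a pooled level of 15.3 CPM (95% Wilson interval 11.4 to 20.5). The 5 ZDF placebo sera held 1 read each, and the 5 WT placebo sera held 4, 4, 1, 0 and 1. It was too rare to be tested with edgeR in any serum comparison, and no exact permutation test in serum gave an unadjusted p below 0.159 (n = 4 or 5 a group).

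In bone miR-7a-5p was found in all 16 libraries with 1 to 55 reads, 301 in all, or 47.0 CPM (Wilson interval 42.0 to 52.6). Its TMM-scaled levels were 16.8 to 49.4 CPM in WT placebo bone (mean 31.4 ± 15.1, SD, n = 4), 45.9 to 65.7 in ZDF placebo bone (mean 56.5 ± 10.2), 20.0 to 105 in WT PTH bone (mean 47.2 ± 39.0) and 41.9 to 202 in ZDF PTH bone (mean 106 ± 70.1). Of the ZDF placebo bones, 3 of 4 exceeded every WT placebo bone, the lowest of the 3 by little (49.7 against 49.4 CPM). The ZDF against WT log2FC was 0.86 (SE 0.43, FDR = 0.353) under placebo and 1.34 (SE 0.65, FDR = 0.350) under PTH, and PTH against placebo in ZDF gave 0.89 (SE 0.47, FDR = 0.678). None of these passed, nor did the interaction (0.47, SE 0.79, FDR = 0.903), and in WT bone under PTH it was too rare to be tested. The exact permutation test of the placebo bones gave p = 0.0571 (n = 4 each, where 0.0286 is the smallest possible). In the ZDF placebo rats every bone held more miR-7a-5p, in CPM, than every serum (exact permutation p = 0.0159, adjusted over the 2 tissue comparisons 0.0317, n = 5 and 4), opposite in direction to miR-375-3p, and in WT rats the groups overlapped (exact p = 0.175). Each of those ZDF sera held 1 read of miR-7a-5p, so their CPM values differ by depth alone and lie near the limit of detection.

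The bones carried muscle miRNAs in varying amounts. The miRNAs whose levels were most like those of miR-7a-5p over the 16 bones, among 243 compared by Spearman's rho, were miR-206-3p (0.84), miR-1b (0.83), miR-1-3p (0.80), miR-30a-3p (0.76) and miR-30e-3p (0.71). miR-206-3p and miR-1-3p are defining miRNAs of striated muscle. Those 2 of 4 listed muscle miRNAs were called higher in ZDF than in WT placebo bone, in a comparison in which 2.55% of all miRNAs passed, each with FDR = 0.199 in edgeR. The other members, miR-133a-3p (log2FC −0.26) and miR-133b-3p (−0.25), did not pass, and the median of the 4 was 0.45. The 4 together made up 62652 to 329540 CPM in WT placebo bone (median 186544), 80467 to 340296 in ZDF placebo bone (median 111802), 53232 to 71428 in WT PTH bone and 115397 to 176584 in ZDF PTH bone. The part of muscle RNA in the miR-7a-5p levels was not tested.

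The opposite arm of the Mir7-1 hairpin was the more abundant one in these files. miR-7a-1-3p had 2538 reads in serum, 56.4 times those of miR-7a-5p, and outnumbered it in 32 of 32 sera. In bone it had 1050 reads, 3.49 times those of miR-7a-5p, and outnumbered it in 14 of 16 libraries. The exceptions were WT PTH replicate 2, with 2 reads of miR-7a-1-3p against 4 of miR-7a-5p, and ZDF PTH replicate 2, with 11 against 48. Like miR-375-3p, miR-7a-1-3p was higher in serum than in bone (log2FC 2.41, FDR = 0.000261 in WT; 2.32, FDR = 5.49e-05 in ZDF). Unlike it, miR-7a-1-3p was not called in any comparison of genotypes or treatments. In ZDF against WT placebo serum its log2FC was −0.04 (SE 0.36, FDR = 0.989), and under insulin −0.05 (SE 0.29, FDR = 0.920). The other arms and relatives were rare: miR-7a-2-3p had 52 reads in serum and 2 in bone, and miR-375-5p and miR-217-3p were listed at 0 reads in all libraries.

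**Figure D4:**
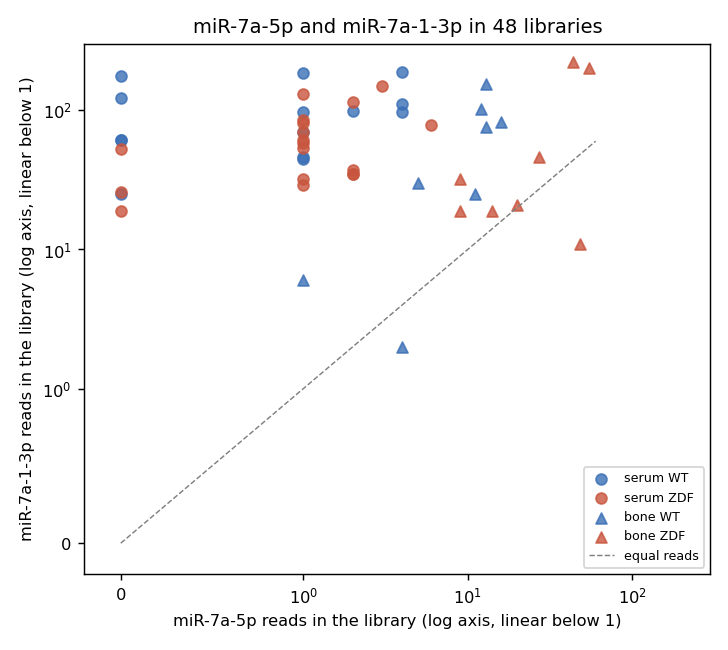
Reads of miR-7a-1-3p against reads of miR-7a-5p in each of the 48 libraries (both axes logarithmic, linear below 1); circles are sera and triangles bones, blue WT and red ZDF, and the dashed line marks equal reads. All 32 sera and 14 of 16 bones lie above the line.

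The acinar miRNAs had few reads in most libraries and high counts in a few. miR-217-5p was found in 17 of 32 sera and 12 of 16 bones. It had 112 reads in serum, 38.1 CPM when pooled, but 78.6% of them came from 5 of the 32 sera, and 15 sera had none. Those 5 were WT anti-sclerostin replicate 4 with 38 reads, WT placebo replicate 3 with 18, ZDF PTH replicate 1 with 16, and WT PTH replicate 3 and WT anti-sclerostin replicate 3 with 8 each. Of these 5, 4 were WT sera, against 14 of the 32 sera in all, and the 5 were picked by reads and not by CPM. The ZDF placebo sera held at most 1 read and the insulin sera at most 2.

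By group, the highest TMM CPM of miR-217-5p was 843 in WT anti-sclerostin, 182 in ZDF PTH, 125 in WT placebo and 119 in WT PTH serum, against medians of 30.5, 29.9, 14.8 and 0. No exact permutation test of miR-217-5p between serum groups passed, the smallest p being 0.111 for ZDF against WT placebo (n = 5 each; means of log2(CPM + 1) of 1.502 and 3.94). In bone it had 81 reads, 12.7 CPM, with 32 in ZDF placebo replicate 4 and 14 in ZDF PTH replicate 4, which together gave 56.8% of them. Serum and bone did not pass the test in either genotype (exact permutation p = 0.540 in WT and 0.333 in ZDF, n = 5 and 4).

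Of the miR-216 rows, miR-216a-5p had 20 reads over 11 of 16 bones, at most 5, and 5 reads over 3 of 32 sera. miR-216a-3p had 1 read, in WT placebo serum replicate 3. miR-216b-5p had 3 reads, 2 in ZDF placebo bone replicate 4 and 1 in ZDF PTH bone replicate 4, and miR-216b-3p had none. Over all libraries of a tissue, 0 reads allow up to 1.02 CPM in serum and 0.469 in bone. In serum the miR-216 rows had only 6 reads, in 4 libraries. Of the 5 sera with at least 8 miR-217-5p reads, 3 also had a miR-216 read, with 5 reads in all, against 1 of the other 27. WT anti-sclerostin replicates 3 and 4, both among the 5, had no miR-216 read, although replicate 4 had the most miR-217-5p reads (38). The 1 other serum with a miR-216 read had none of miR-217-5p. In bone such sharing of libraries was less clear. Both bones with at least 8 miR-217-5p reads had a miR-216 read, but so did 11 of all 16 bones. Those 2 bones held 10 of the 23 miR-216 reads. They were the only bones with miR-216b-5p and had the most miR-217-5p reads. By level this did not hold: ZDF PTH bone replicate 4, a deep library of 971036 miRNA reads, had 14.4 CPM of miR-217-5p, below the 25.8 to 36.7 CPM of 3 bones without miR-216b-5p, and the part of depth in the shared libraries was not tested. The limit of 8 reads was chosen after the values were seen, and this is a description with no test.

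miR-148a-3p, an abundant miRNA of acinar cells that many other tissues also make, was the only other miRNA on the acinar list. It was not called between genotypes or treatments in either tissue.

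**Figure D5:**
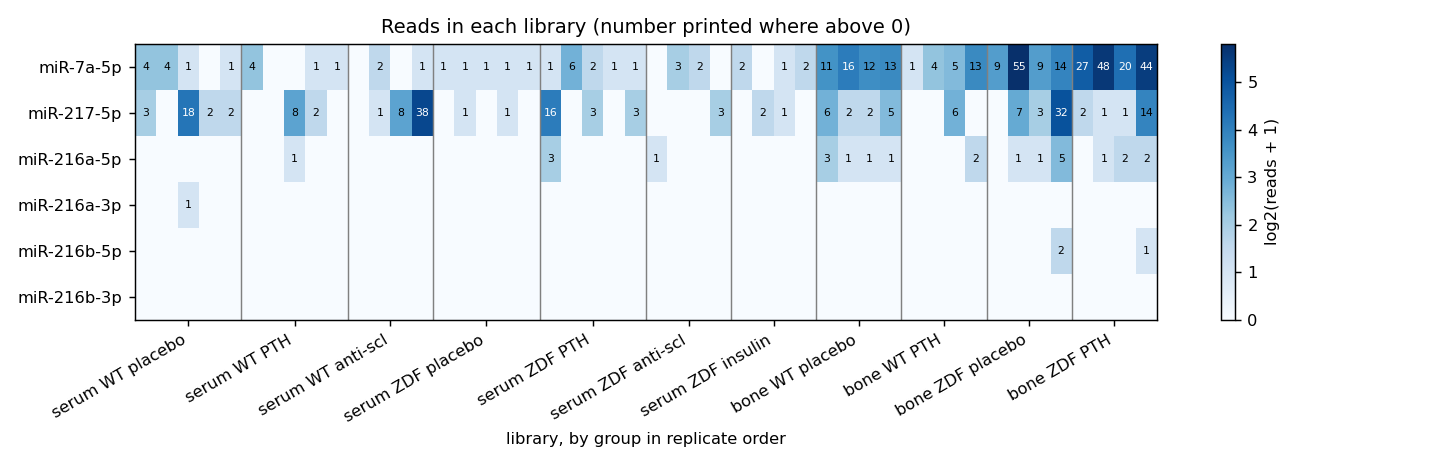
Reads of the 6 rarer miRNAs in each of the 48 libraries, ordered by group, with the colour giving log2(reads + 1) and the number of reads printed where it is above 0. miR-7a-5p fills all 16 bones, while miR-217-5p reaches 38 reads in 1 WT anti-sclerostin serum and 32 in 1 ZDF placebo bone.

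Over the 32 sera, miR-375-3p varied most like miR-155-5p (Spearman's rho 0.70), miR-192-5p (0.66), miR-320-3p (0.62), miR-203a-3p (0.62) and miR-802-5p (0.60) among 198 miRNAs. The points share library depth and composition, and part of each value comes from the differences between groups. With each group's mean removed, Pearson's r for these 5 was 0.60, 0.66, 0.63, 0.72 and 0.43. miR-192-5p and miR-802-5p are on the liver list.

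Relations of miR-375-3p over the sera were computed with permutation tests for 4 measures. With liver miR-122-5p, Pearson's r was 0.39 (p = 0.0274, adjusted 0.109) and Spearman's rho 0.41 (p = 0.0188, adjusted 0.0560), and r was 0.50 without the 2 sera farthest from the median of miR-122-5p. Within groups r was 0.02 (p = 0.889) and rho −0.05 (p = 0.791). With miR-7a-5p, r was 0.29 (p = 0.106) and rho 0.39 (p = 0.0280, adjusted 0.0560), 0.38 without the 2 farthest sera, and r = 0.32 (p = 0.0960) and rho = 0.36 (p = 0.0548) within groups. With the hemolysis measure r was −0.10 (p = 0.570; rho 0.10, p = 0.576) and −0.15 without the 2 farthest sera. With the log2 number of miRNA reads r was −0.33 (p = 0.0685; rho −0.31, p = 0.0892) and −0.25 without the 2 farthest. None of the 4 passed 0.05 after adjustment over the 4 relations, pooled or within groups.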

How the data were processed

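Small RNAs were sequenced from 32 sera and 16 ulnae. Per the study's methods, the authors used cutadapt for trimming (17 nt or longer) and bowtie with miRDeep2 for mapping, allowing 2 mismatches to the genome (Rnor 6.0) and 1 to miRBase. The deposited counts are whole reads per mature miRNA, not normalized. The deposited RPM values, scaled by the authors to all reads of a library, served only to recover library totals; a further column, scaled to miRNA reads, was not used. Rows of added controls were left out of the miRNA counts.

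Groups were compared in R 4.3.3 with edgeR 4.0.16 (quasi-likelihood test, legacy = TRUE, robust = FALSE) and limma 3.58.1 after TMM normalization. Each fit held just its own groups, and miRNAs were kept by filterByExpr in place of the independent filtering named by the study, which was run as an alternative. FDR values are Benjamini-Hochberg over the miRNAs kept; FDR < 0.2 is called. Rare miRNAs were compared by exact permutation of mean log2(CPM + 1), two-sided. Relations over sera used 100000 permutations. The script was tested on simulated data. The alternatives were DESeq2 1.42.0, other size factors (RLE, library totals, extraction controls), other filters, all groups of a tissue in one fit, FDR < 0.05, a pseudocount of 10, plain CPM, and each library left out in turn. The joint genotype fits and the hemolysis covariate (log2 ratio with a pseudocount of 0.5) were added after the data were seen. Bones held 2 to 65 extraction control reads, too few to scale by.

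Named are the 7 miRNAs, their other arms and relatives, a list of islet and neuroendocrine miRNAs, tissue marker lists, and for miR-375-3p in serum and miR-7a-5p in bone the 5 miRNAs with the highest Spearman's rho. The miRNAs and lists were chosen with earlier results of these data known. No 2 libraries of a group agreed within sampling noise (82 pairs, chi-square per degree of freedom at least 12.7). By the methods, 2 PTH-treated ZDF bones came from rats without a serum library. Of the listed miRNAs, 686 had a RefSeq sequence.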

Additional observations from a re-analysis of the deposited data

Results flagged for a closer look

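Among 27 combinations of miRNA and group, 10 held a library that stood far from the others by Dixon's test at the 95% level. Only groups in which the miRNA had more than 3 reads in some library were looked at. The highest library of a group thus decided whether the group entered. The test's nominal rate of about 1 flag in 20 groups does not hold for groups chosen this way. Nor does it hold for values built on 0 or a few reads, so it is no baseline for the 10 flags, which are a description only. Of the 10, 8 were for miR-217-5p and 2 for miR-7a-5p, in each case a single high library built on few reads. miR-217-5p was at 843 CPM in WT anti-sclerostin serum replicate 4 (the others at 0 to 50.3), 182 in ZDF PTH serum replicate 1 (0 to 35.3), 125 in WT placebo serum replicate 3 (0 to 28.9) and 119 in WT PTH serum replicate 3 (0 to 16.8). In bone it was at 150.1 CPM in ZDF placebo replicate 4 (0 to 21.6), 32.8 in WT PTH replicate 3 (the others at 0), 27.0 in WT placebo replicate 1 (3.57 to 6.44) and 13.3 in ZDF PTH replicate 4 (4.21 to 5.55). miR-7a-5p was at 79.0 CPM in ZDF PTH serum replicate 2, from 6 reads (9.98 to 23.6), and at 40.1 in WT PTH serum replicate 1, from 4 reads (0 to 8.49). No group held such a library for miR-375-3p.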

How the results depend on the processing

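No paired analysis was possible because the labels give no replicate numbers and no rat identity, so a bone cannot be matched to the serum of its rat. For miR-375-3p, the ZDF against WT placebo difference in serum was called in all 10 other settings (log2FC 1.79 to 2.37, FDR up to 0.146) and without each library (2.03 to 3.18). One of those settings, FDR < 0.05, is the main fit at a stricter threshold. Both serum against bone differences were called in every alternative run (2.75 to 4.23 in WT and 5.14 to 6.08 in ZDF without 1 library). The cause of the changes that follow was not tested. The insulin against ZDF placebo call was lost at FDR < 0.05 (−1.15, FDR = 0.0648), with all sera in one fit (−1.02, FDR = 0.393), with extraction controls (−0.27) and with the hemolysis measure (−2.91), and without 1 library the value ran from −1.35 to −0.84. Library totals shifted the median of all miRNAs by −0.31 there and moved the split of calls from 17 higher and 23 lower to 9 and 50; extraction controls gave 22 higher and 0 lower. In the ZDF against WT placebo comparison they moved 7 higher and 3 lower to 2 and 35, with a median shift of −0.93; calls at 1 read and over without further filter were 33, with independent filtering 37, against 10. Insulin against WT placebo was lost at FDR < 0.05 (1.25), with all sera in one fit (1.26), library totals (0.89) and extraction controls (1.51), and ran from 0.99 to 2.07. ZDF against WT under anti-sclerostin became a call in DESeq2 (1.65), with at least 1 read (1.51, with or without independent filtering) and with filterByExpr and independent filtering (1.68, FDR = 0.196). With extraction controls the sign turned under anti-sclerostin (0.54 in ZDF, −0.0020 in WT), under PTH in ZDF (0.79) and in both serum interactions (0.54 and 0.30). Without 1 library the ZDF anti-sclerostin value ran from −0.33 to 0.15 and the ZDF PTH value from −0.56 to 0.023, turned without ZDF placebo replicate 1 or ZDF PTH replicate 3. In bone, ZDF against WT turned to 0.0020 with at least 1 read and ran from −0.32 to 0.66, WT PTH against placebo from −1.32 (a call, FDR = 0.191, without WT placebo replicate 1) to −0.63, ZDF against WT under PTH from −0.12 to 0.43 and the PTH interaction from −0.46 to 0.82. The genotype by tissue term was called with at least 1 read (2.18) and ran from 1.504 to 2.94, called without WT placebo serum or bone replicate 1. For miR-7a-5p in bone, the PTH interaction ran from −0.068 (without ZDF PTH replicate 2) to 0.88 without 1 library, and ZDF against WT placebo was called without WT placebo replicate 1 (1.14, FDR = 0.107). Of 79 repeats of the exact tests 78 kept their side of 0.05; insulin against ZDF placebo passed with plain CPM. In bone some fits without 1 library gave no miR-375-3p value, since the filter dropped it (5 of 8 for WT PTH, 4 of 8 for ZDF against WT under PTH remained). With few reads, miR-7a-5p in serum and miR-217-5p and the miR-216 miRNAs in both tissues did not pass the filter of the main edgeR fits. The parts of depth and of low level in this were not tested.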
